A study of Mus musculus with 2 samples.

Results

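The genes described here are 50 regulators of chromatin that act in brain development: subunits of the BAF remodeling complex, CHD remodelers, enzymes that add or remove methyl and acetyl groups on histones, and a few associated proteins. They were taken by symbol from a list, with no cutoff on a measured value, out of 55536 annotated genes, 22015 of them nuclear and protein-coding. The list was drawn up with earlier results of these data known. RNA-seq of total RNA was made from left cerebral cortices of female mice 25 days old, with 1 library each for replicates 1 and 2 of 1 group with no treatment named. Expected counts over genes summed to 31191535 and 27079700. Both carry the strain label B6CASTF1/J, a first-generation hybrid of C57BL/6 and CAST, and the tables used give no counts by parental allele. Animal numbers differ between the replicates in the labels while the donor identifier is shared, so the spread between the libraries may cover preparation only. With 1 group there is no contrast between conditions, and 2 animals cannot give a two-sided exact p below 0.5, so all values are descriptions with no test.

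BAF complexes use an ATPase to slide or eject nucleosomes. As a neural progenitor leaves the cell cycle, several of their subunits are exchanged for related ones: Actl6a (BAF53a) for Actl6b (BAF53b), Ss18 for Ss18l1 (CREST), and the BAF45 proteins Phf10 and Dpf2 for Dpf1 and Dpf3. CHD proteins are a second family of remodelers, of which Chd3, Chd4 and Chd5 are alternative motors of the NuRD complex. Methyltransferases and demethylases set marks of active genes (H3K4, H3K36) or silent ones (H3K9, H3K27), while acetyltransferases and deacetylases open or close chromatin. Many of these genes are mutated in intellectual disability and autism.

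The sequences below are those the results on Actl6a and on alternative coding segments refer back to. miR-9-3p is a neuronal microRNA known to act on Actl6a in the exchange of BAF53 subunits, although mature microRNAs were not measured here. Its mature sequence (RefSeq, GRCm38.p6) is printed with the seed, bases 2 to 8, in capitals. The 3′ UTR of Actl6a-201, 371 nt long, holds 1 match to that seed, AGCTTTA, on the transcript strand, starting 38 nt into the UTR. A window of 23 nt around the match, from GENCODE M21 on mm10 at chr3:32726625-32726647 on the plus strand, is printed with the match in capitals.

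miR-9-3p: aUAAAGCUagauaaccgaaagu
Actl6a-201 3′ UTR: cacctcaacgtctgtAGCTTTAg

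Of the Actl6a level, Actl6a-201 held 33.3% and 26.3% in replicates 1 and 2. The coding transcript Actl6a-202 held 30.8% and 30.9%, and has no annotated 3′ UTR and so no match. The 196 nt UTR of Actl6b-205 holds no AGCTTTA. Among detected protein-coding genes whose leading coding transcript has at least 371 nt of 3′ UTR, 284 of 9661 (2.94%) hold AGCTTTA in the first 371 nt. Actl6a is not among these genes, because its leading coding transcript by mean share was Actl6a-202. A match of letters is a description and does not show that the site is used.

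In 9 members, coding transcripts that each held at least 10% of the gene's TPM (an RNA level corrected for transcript length and library size) differed by 1 internal coding segment. All 9 segments keep the reading frame. In 5 of them the segment was in more than 50% of the compared coding TPM in both libraries and both of the deposited quantifications, and these are printed for that reason. Capitals mark the optional segment, and 10 flanking bases of the including transcript on each side are in lower case.

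Smarcb1-201, chr10:75916773-75916799, minus strand: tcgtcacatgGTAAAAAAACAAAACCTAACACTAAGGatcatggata
Smarcc2-202, chr10:128481682-128481774, plus strand: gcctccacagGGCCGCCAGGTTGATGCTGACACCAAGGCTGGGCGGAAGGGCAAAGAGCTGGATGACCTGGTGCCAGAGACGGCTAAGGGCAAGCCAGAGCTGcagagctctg
Chd5-202, chr4:152376580-152376690, plus strand: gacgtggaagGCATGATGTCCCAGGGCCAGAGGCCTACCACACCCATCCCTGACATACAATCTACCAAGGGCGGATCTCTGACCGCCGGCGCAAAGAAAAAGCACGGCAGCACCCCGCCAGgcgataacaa
Crebbp-201, chr16:4137366-4137479, minus strand: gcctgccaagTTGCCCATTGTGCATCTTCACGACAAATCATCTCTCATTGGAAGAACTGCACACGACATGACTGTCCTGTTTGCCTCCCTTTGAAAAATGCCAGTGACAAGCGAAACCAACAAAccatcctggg
Pogz-205, chr3:94864458-94864484, plus strand: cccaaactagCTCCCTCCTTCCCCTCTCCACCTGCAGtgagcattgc

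Every member was detected, which required both libraries to reach a TPM of 1, against 58.7% of all nuclear protein-coding genes (12933 of 22015). The median member stood at a TPM of 37.5 (34.8 in replicate 1 and 38.5 in replicate 2), and the median detected gene at 16.0. The members' median thus lay at percentile 76.1 of detected genes, with 42 members above the middle gene and 8 at or below it. In CPM, counts scaled to library size but not corrected for length, it lay at percentile 84.9. Members are long, with a median effective length of 4205 nt against 2423 nt, and 38 of 50 were longer than the median detected gene. A mean TPM between 10 and 100 was found for 43 members (57.4% of detected genes), above 100 for 4 and below 10 for 3. The shares of detected genes above 100 and below 10 were not computed. The lowest expected count of a member in a library was 179. In bulk tissue a lower level can mean fewer cells of a type or less RNA per cell, which cannot be told apart.

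**Figure D1:**
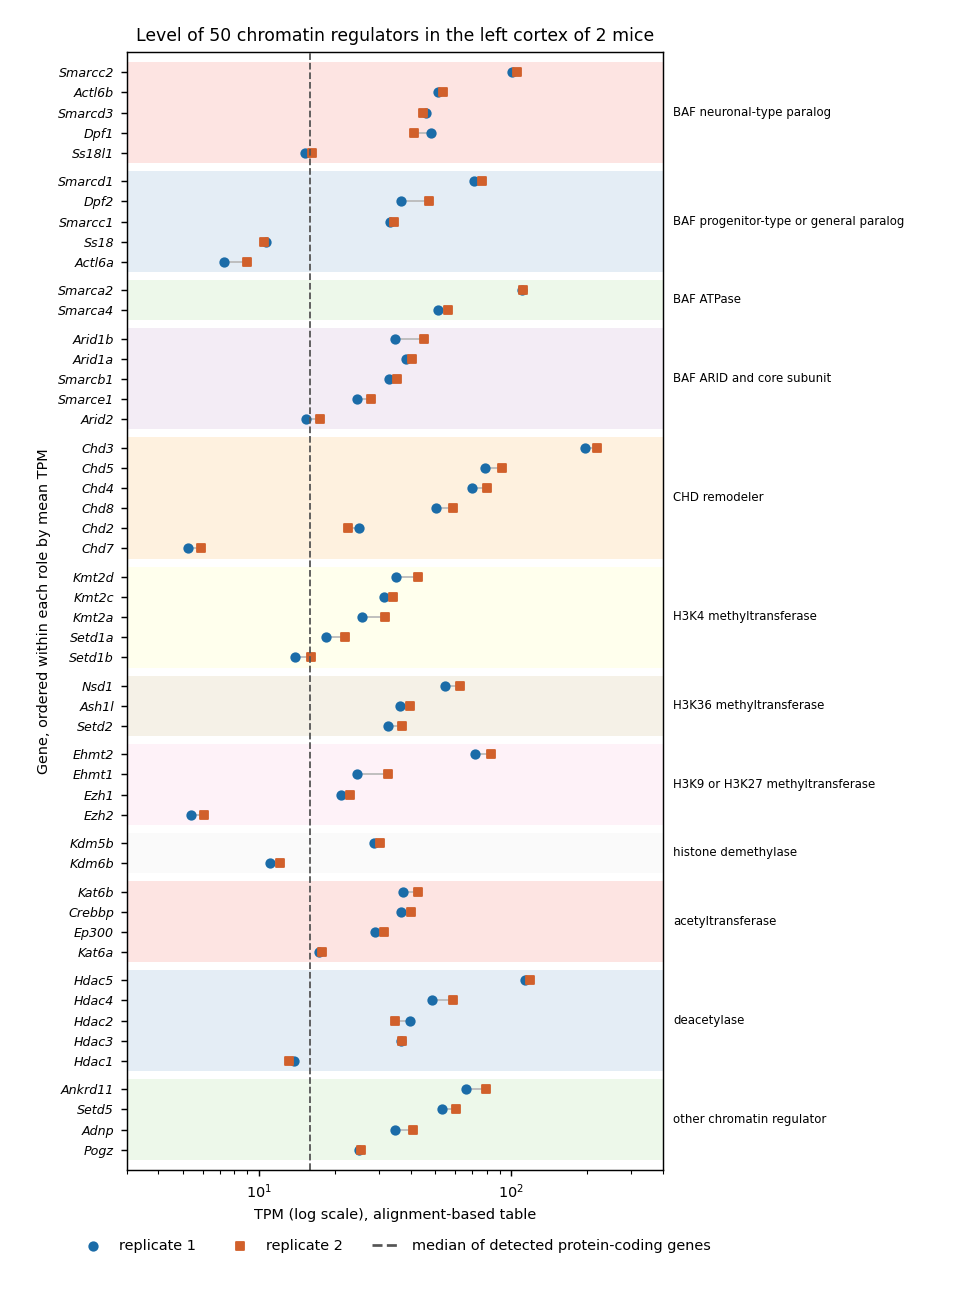
TPM of each of the 50 genes (log axis) in replicate 1 (circles) and replicate 2 (squares), grouped by role, with the median of detected protein-coding genes as a dashed line. Chd3 stands highest, and Chd7, Ezh2 and Actl6a are the 3 genes below a TPM of 10.

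The CHD family held both the highest and the lowest member in TPM. Chd3 led with TPM values of 195.91 and 219.53 in replicates 1 and 2 (208 ± 16.7, SD, n = 2). Hdac5 followed with 113.71 and 118.61, Smarca2 with 110.86 and 111.09, and Smarcc2 with 101.07 and 105.61. The neighbours Hdac5 and Smarca2 did not overlap between libraries, but most of the Hdac5 TPM was in transcripts not annotated as protein-coding, described below. In the FASTQ-based quantification Hdac5 (127 and 129) stood below Smarca2 (204 and 204) and Smarcc2 (178 and 176). Hdac5 was also lower in CPM, at 148 and 147, than Smarca2 (271 and 265) and Smarcc2 (251 and 249). At the other end were Chd7 at 5.25 and 5.90, Ezh2 at 5.39 and 6.05, and Actl6a at 7.27 and 8.95. Chd7 and Ezh2 overlapped, so their order is within the spread. In CPM the lowest was Actl6a (5.81 and 6.60), with Ezh2 at 5.88 and 7.11 and Chd7 above both at 17.2 and 20.8. In mean TPM the highest member, Chd3, was 37.3 times the lowest, Chd7.

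The clearest difference between neuronal and progenitor forms of BAF was at the actin-related position. Actl6b (chr5:137553517-137569582, plus strand), the subunit of neurons, had TPM values of 51.55 and 53.95. Actl6a (chr3:32706298-32726973, plus strand), its counterpart in dividing cells, had 7.27 and 8.95. Actl6b was therefore 7.09 and 6.03 times Actl6a and made up 86.7 ± 1.32% of their sum (SD, n = 2). In the FASTQ-based quantification the ratios were 7.80 and 7.73, and over protein-coding transcripts alone 8.47 and 8.59. Actl6a rested on 179 and 181 expected counts, and its exons overlap those of Mrpl47 on the other strand (335 and 245 counts).

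At the core scaffold 1 form also stood well above the other. Smarcc2 (BAF170) stood at 3.06 and 3.07 times Smarcc1 (BAF155), whose TPM values were 33.02 and 34.43, and the share of Smarcc2 was 75.4 ± 0.0279%. Smarcc1 shares exonic positions with Dhx30 on the other strand. The optional 93 nt segment of Smarcc2 printed above was in 63.2% and 58.8% of the compared coding TPM, and in 62.7% and 58.0% by the FASTQ-based table. Both forms of Smarcc2 were thus present in both animals.

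At the other exchanged positions the 2 forms were closer. Ss18l1, a calcium-responsive coactivator, had TPM values of 15.19 and 16.33, and Ss18 had 10.66 and 10.5. The values did not overlap, and the ratio was 1.42 and 1.56. Dpf1 had 48.00 and 41.41, and Dpf2 had 36.67 and 47.43. Their order by this measure differed between the animals, with ratios of 1.31 and 0.873. Dpf1 was above Dpf2 in both by FASTQ-based TPM (1.22 and 1.65) and in CPM (1.22 and 1.18). Part of the Dpf2 value was a processed transcript of 314 nt, Dpf2-208, at 6 and 17.22 TPM, to which the FASTQ-based table gave 0% of the gene. Over protein-coding transcripts alone Dpf1 was 1.99 and 2.41 times Dpf2. Of the summed BAF45 TPM, a grouping made after the values were seen, Dpf1 held 38.5%, Dpf2 36.1%, Phf10 22.8% and Dpf3, the other neuronal form, 2.63%.

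The BAF60 position went the other way. Smarcd3 (BAF60c) had TPM values of 45.97 and 44.92, below Smarcd1 (BAF60a) at 71.33 and 76.78, a ratio of 0.644 and 0.585. Smarcd1 held 58.2 ± 1.10% of the position, Smarcd3 35.8 ± 1.77% and Smarcd2 6.03 ± 0.673%. The ratio was below 1 in each library under every measure tried, from 0.347 and 0.312 in CPM to 0.877 and 0.803 in FASTQ-based TPM. Exons of Smarcd3 overlap those of Chpf2 on the other strand.

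Smarca2 (BRM) and Smarca4 (BRG1) are the alternative ATPases. Smarca4 had TPM values of 51.45 and 56.11, so that Smarca2 was 2.15 and 1.98 times as abundant. Much of this difference lay in transcripts that are not protein-coding. Coding transcripts made up 56.7% and 46.8% of Smarca2 TPM and 100% of Smarca4 TPM, and over them the ratio was 1.22 and 0.927 (1.58 and 1.37 by the FASTQ-based table). Transcripts annotated for nonsense-mediated decay, a pathway that degrades RNAs with early stop codons, held 26.3 ± 0.960% of Smarca2 by alignment and 16.5 ± 3.81% by the FASTQ-based table. Smarca2 has 46 annotated transcripts, more than any other member.

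The remaining BAF subunits lay in the middle of the range. Arid1a and Arid1b, alternative DNA-binding subunits of canonical BAF, had TPM values of 38.51 and 40.38, and of 34.70 and 45.20. They overlapped, with ratios of Arid1b to Arid1a of 0.901 and 1.12. The higher Arid1b value of replicate 2 included 7.37 TPM of Arid1b-204, a processed transcript of 418 nt at 0 in replicate 1 and at 0% by the FASTQ-based table. Arid2, the subunit of PBAF, stood lower at 15.38 and 17.55. Smarcb1 (BAF47), a core subunit that binds the nucleosome, had 32.80 and 35.18, and Smarce1 (BAF57) 24.43 and 27.93. The 27 nt segment of Smarcb1 printed above was in 76.2% and 66.5% of the compared coding TPM and in 80.6% and 72.9% by the FASTQ-based table.

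**Figure D2:**
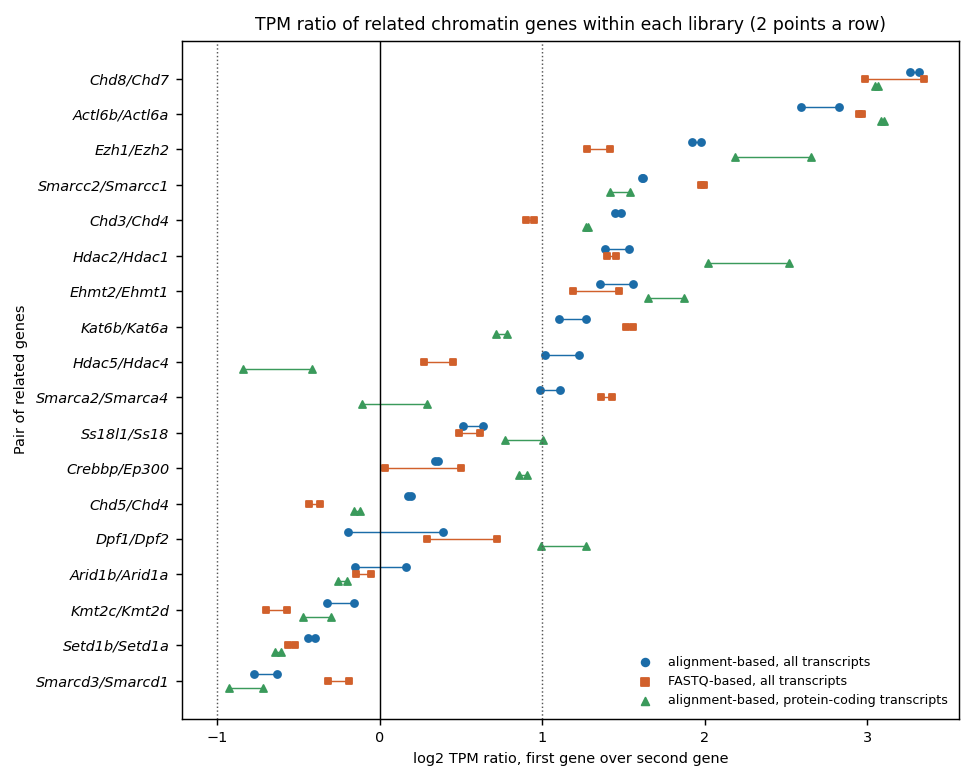
log2 TPM ratio of 18 pairs of related genes, with 2 points a row for the 2 libraries, from the alignment-based table (circles), the FASTQ-based table (squares) and protein-coding transcripts of the alignment-based table (triangles). Dotted lines mark a 2-fold difference. Chd8/Chd7 and Actl6b/Actl6a lie farthest to the right. Hdac5/Hdac4 and Chd5/Chd4 change side in both libraries when only protein-coding transcripts are counted.

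Across all 18 pairs, 9 were at least 2-fold apart in the same direction in both libraries, and 16 had the same direction in both. Of the 9 pairs, 6 stayed at least 2-fold apart in each library under every other measure tried: Actl6b/Actl6a, Smarcc2/Smarcc1, Chd8/Chd7, Ezh1/Ezh2, Ehmt2/Ehmt1 and Hdac2/Hdac1. The measures were FASTQ-based TPM, CPM, protein-coding transcripts alone in either table, and each library by itself. The pairs were chosen as known relatives, so no background share applies to this count.

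Among CHD remodelers the NuRD motors were abundant and Chd7 was scarce. Chd5, the form enriched in neurons, had TPM values of 79.10 and 91.80, and Chd4, the general form, 70.10 and 80.48. Chd3 made up 56.4 ± 0.522% of the 3 motors, Chd5 23.2 ± 0.360% and Chd4 20.4 ± 0.161%. Chd3 was 2.79 and 2.73 times Chd4, but 1.93 and 1.86 times by the FASTQ-based table. Chd5 was 1.13 and 1.14 times Chd4, and 0.774 and 0.740 times by the FASTQ-based table. Over protein-coding transcripts Chd5 was 0.895 and 0.919 times Chd4 by alignment, and 0.858 and 0.876 times by the FASTQ-based table. In CPM the ratio was 1.53 and 1.56, so their order depends on the measure.

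Chd8, a remodeler frequently mutated in autism, had TPM values of 50.31 and 58.79. It was 9.58 and 9.96 times Chd7, the gene of CHARGE syndrome, which works in progenitors, the largest alignment-based TPM ratio of any pair. In counts Chd7 had 530 and 570 against 4552 and 4058 for Chd8. Chd2 had 25.04 and 22.51, one of 6 members with a lower TPM in replicate 2, and its exons overlap the same-strand gene 1810026B05Rik (522 and 460 counts). The optional 39 nt segment of Chd4 was in 49.4% and 65.4% of the compared coding TPM, and that of Chd5 in 80.5% and 87.5%.

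The H3K4 methyltransferases ran from 15.1 to 38.8 in mean TPM. Kmt2d (MLL4), which marks enhancers, had TPM values of 34.97 and 42.70, and its partner in function Kmt2c (MLL3) 31.29 and 34.07. Kmt2c was 0.895 and 0.798 times Kmt2d. Kmt2a (MLL1), which sustains expression of Hox genes, had 25.58 and 31.72. Setd1a, which acts at promoters, had 18.43 and 21.99, and Setd1b 13.98 and 16.15. The ratio of Setd1b to Setd1a was 0.759 and 0.734 in TPM but 1.24 and 1.25 in CPM, so the order of these 2 depends on the length correction. All 5 had a higher TPM in replicate 2, and their median coding share was 99.3% by alignment, the highest of any role there but not in the FASTQ-based table. Setd1a overlaps the same-strand gene Gm49388 (209 and 206 counts).

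The H3K36 methyltransferases were above the members' middle or near it. Nsd1, the gene of Sotos syndrome, had TPM values of 54.55 and 62.89, Ash1l 36.41 and 39.94, and Setd2 32.65 and 36.97. Nsd1 did not overlap the other two. Exons of Ash1l overlap those of Dap3 on the other strand.

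Among enzymes of silent chromatin, the forms of PRC2 differed in level. Ezh1, the PRC2 enzyme of resting cells, had TPM values of 21.16 and 22.95, and Ezh2, the enzyme of dividing cells, 5.39 and 6.05. Ezh1 was 3.93 and 3.79 times Ezh2, and 7.94 and 6.48 times in CPM. The FASTQ-based ratio was smaller at 2.67 and 2.41, and that table gave Ezh2 2.60 and 2.63 times the alignment-based TPM. Over protein-coding transcripts the ratio was larger, 6.29 and 4.55 by alignment and 6.45 and 4.19 by the FASTQ-based table. Ehmt2 (G9a) had 72.27 and 83.50 and Ehmt1 (GLP) 24.56 and 32.59, although the proteins act together on H3K9, a ratio of 2.94 and 2.56.

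Markers of progenitors and dividing cells bear on the low progenitor forms, and are given as measured. Of 10 such markers 2 were detected, Pax6 at 3.70 and 3.17 TPM and Nes at 2.28 and 3.18. The defining genes Eomes, Mki67 and Top2a had TPM values of 0.07 to 0.52. The 10 summed to 9.35 and 10.4 TPM. Their part in the levels of Actl6a, Ezh2 and Chd7 was not tested.

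The 2 demethylases among the members were modest. Kdm5b, which removes H3K4 methylation, had TPM values of 28.58 and 30.16. Kdm6b, which removes H3K27 methylation, had 11.05 and 12.09 and did not overlap it.

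Of the acetyltransferases, Kat6b had TPM values of 37.37 and 42.75 and Kat6a 17.41 and 17.74, a ratio of 2.15 and 2.41. The counts behind them were nearly equal, at 2894 and 2786 for Kat6b and 2961 and 2791 for Kat6a. Their effective lengths were 3726 and 8590 nt, and the leading transcript of Kat6b was Kat6b-210, a coding model of 606 nt with 30.4% and 27.9% of the gene. Crebbp (CBP), a coactivator of CREB in activity-dependent transcription, had 36.55 and 40.23, and Ep300 28.95 and 31.39. Crebbp was 1.26 and 1.28 times Ep300. Its 114 nt segment printed above was in 76.0% and 73.3% of the compared coding TPM, but in 53.0% and 53.1% by the FASTQ-based table.

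Class I deacetylases are the catalytic subunits of NuRD, CoREST and other repressors. Hdac2, known for its role in memory, had TPM values of 39.89 and 34.56, Hdac3 36.58 and 36.98, and Hdac1 13.78 and 13.23. Hdac2 was 2.89 and 2.61 times Hdac1, while Hdac2 and Hdac3 overlapped. The 3 held 42.5 ± 2.43%, 42.1 ± 2.19% and 15.4 ± 0.239% of their sum. Hdac1 had fractional counts (374.80 and 337.25), which arise where reads are divided among entries.

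Class IIa deacetylases shuttle out of the nucleus on calcium signals. Hdac5 was 2.33 and 2.02 times Hdac4, which had TPM values of 48.72 and 58.71. In CPM the ratio was 1.16 and 1.06. Over protein-coding transcripts it turned to 0.750 and 0.558, and by the FASTQ-based table over coding transcripts to 0.835 and 0.557. Coding transcripts held 27.9% and 23.7% of Hdac5 TPM, the lowest share of any member by alignment, and 40.8% and 33.8% by the FASTQ-based table. Retained-intron transcripts held 47.8 ± 0.786% and, by that table, 32.3 ± 4.31%. Its leading transcript was Hdac5-211, a retained-intron model of 754 nt with 19.2% and 18.8%, to which the FASTQ-based table gave 1.04% and 0%. By expected counts 52.7% and 44.8% of Hdac5 was coding.

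The 4 other regulators included Ankrd11, a deacetylase-binding protein, with TPM values of 66.45 and 79.37, and Setd5, a SET-domain protein, with 53.08 and 60.56. Adnp, a partner of Chd4 in the ChAHP complex, had 34.70 and 40.93, and Pogz, a binder of heterochromatin proteins, 25.03 and 25.46. All 4 are genes of neurodevelopmental syndromes. None of these ranges overlapped another. Adnp shares exonic positions with the same-strand gene Gm20716 (1581 and 1280 counts), so its level is uncertain. The 27 nt segment of Pogz was in 82.1% and 83.3% of the compared coding TPM and in 62.5% and 58.5% by the FASTQ-based table.

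Transcript models divided the members further. Of 49 members with more than 1 annotated transcript, 47 were led by a protein-coding transcript in both libraries (89.2% of 11708 detected genes with more than 1). The same transcript led in both libraries for 42 members (88% of genes), and in both libraries and quantifications for 37 (64.2% of genes). The first exception to a coding leader was Hdac5 and the other Dpf2, which Dpf2-208 led in replicate 2 with 36.3%. Actl6a, Chd4, Chd8, Ehmt1, Setd5 and Ss18 changed leader between libraries within coding transcripts. In the FASTQ-based table Ezh2 was led by Ezh2-211, a processed transcript, with 21.6% and 15.8%.

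The median coding share of members was 81.4% of TPM, against 85.6% over all such genes (81.8% and 83.1% by the FASTQ-based table). Retained-intron transcripts held a median of 11.6% in members and 4.93% in all genes (10.7% and 4.87% by the FASTQ-based table). A coding share under 50% in both libraries was found for 2 members by alignment, Hdac5 and Setd5 (48.1% and 46.4%), and 25 had at least 80% in both. The share of all genes was not computed for these counts, so they cannot be read as particular to the members. The FASTQ-based table added Ezh2 to those under 50%, with the lowest mean share there (26.5% and 37.3%). In replicate 2 Hdac5 was lower by that table, at 33.8%, so the 2 genes overlapped. By expected counts the median share was 93.5%, with no member under 50% in both libraries. By alignment, retained introns held most in Hdac5, Hdac1 (44.5 ± 8.61%) and Actl6a (33.3 ± 11.6%). By the FASTQ-based table they held most in Hdac1 (47.1 ± 4.54%), Dpf2 (44.9 ± 2.99%) and Chd8 (38.0 ± 8.33%).

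**Figure D3:**
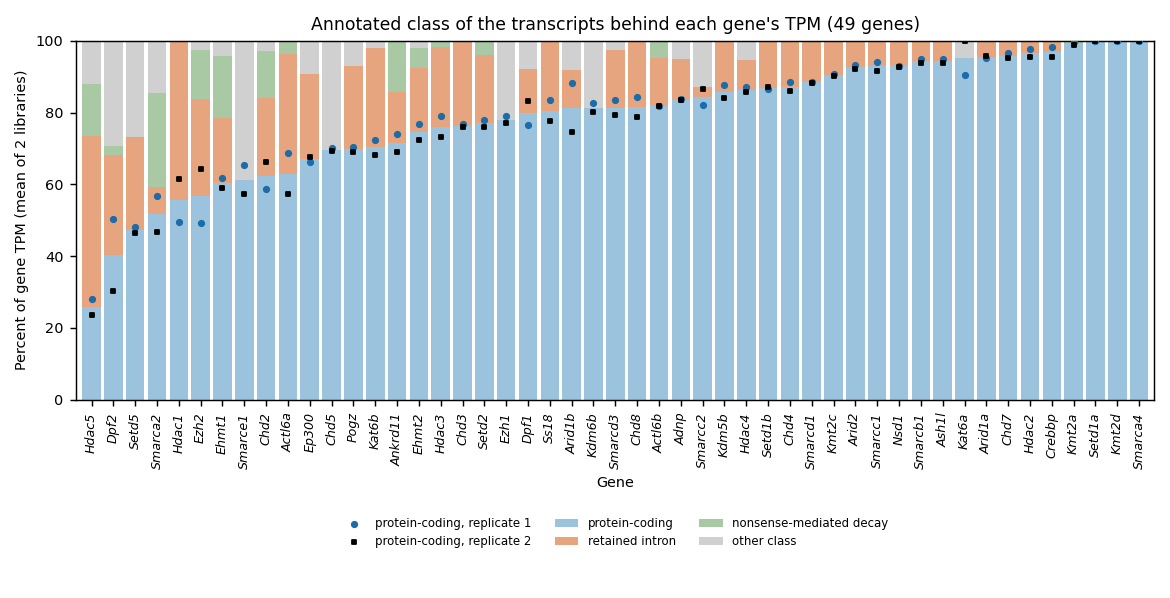
Percent of each gene's TPM in protein-coding, retained-intron, nonsense-mediated decay and other transcripts (stacked bars, mean of 2 libraries), for 49 genes in order of coding share, with the coding share of each library as points. Hdac5 is at the left with 25.8% coding, and Dpf2 shows the largest gap between its 2 points.

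Of the 9 optional segments, those of Smarcb1, Smarcc2, Chd5, Crebbp and Pogz were above 50% in all 4 values. The 126 nt segment of Ezh2 was below 50% in all 4, from 38.0% to 47.7%. The 93 nt segment of Ss18 was in 36.7% and 42.5% by alignment but in 60.8% and 58.5% by the FASTQ-based table, and the 57 nt segment of Setd5 in 56.8% and 50.3% against 34.0% and 34.2%. For these 2 the majority form depends on the quantification.

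**Figure D4:**
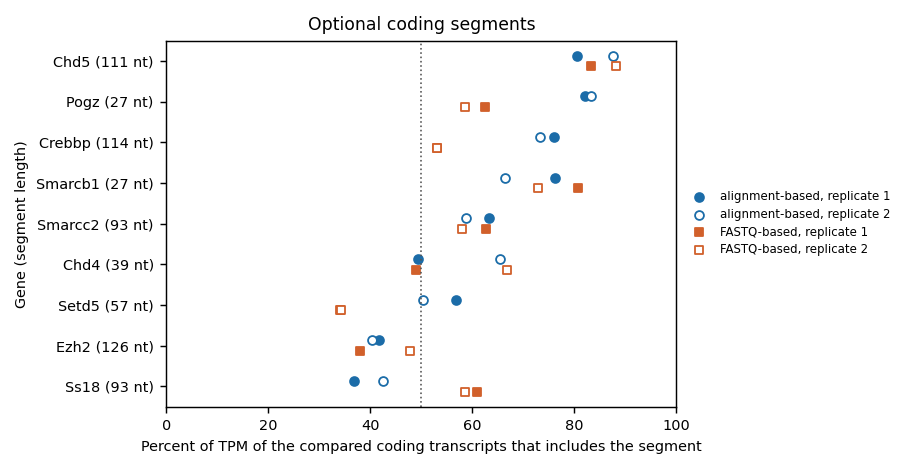
Percent of the compared coding TPM that includes each optional segment, in replicate 1 (filled) and replicate 2 (open), from the alignment-based table (circles) and the FASTQ-based table (squares). The segments of Setd5 and Ss18 fall on different sides of the dotted 50% line in the 2 tables, and that of Chd4 in the 2 libraries.

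No member differed by as much as 1.5-fold in CPM between the animals, against 3.16% of 13375 protein-coding genes with a mean of at least 1 CPM. At 1.2-fold, a threshold chosen after the values were seen, 3 members differed (16% of genes). These were Ezh2, 1.21 times higher in replicate 2 (95% interval for counting error 0.983 to 1.49), Chd7, 1.21 times higher (1.07 to 1.36), and Hdac2, at 0.809 times (0.749 to 0.873). Kmt2d was 1.14 times higher in replicate 2 (1.10 to 1.17), Actl6a 1.14 times (0.918 to 1.40) and Dpf1 at 0.889 times (0.821 to 0.963). The exact intervals cover the counting of 1 library per animal and not the spread between animals.

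More members were higher than lower in replicate 2: 34 of 50 in CPM, against 41.5% of genes. The interval lay above 1 for 19 members (11.6% of genes) and below 1 for 5 (21.5% of genes), namely Hdac2, Hdac3, Dpf1, Dpf2 and Smarcd3. Members have higher counts than most genes, which narrows their intervals. On the log2(CPM + 1) scale the median difference was 0.045 over members and -0.03 over all genes. By effective length, 23 of 29 members over 4000 nt were higher in replicate 2 (45.4% of genes of that length), 6 of 10 from 2000 to 4000 nt (42.2%) and 5 of 11 under 2000 nt (38.5%). The median difference over 4000 nt was 0.063 for members and -0.014 for genes. By role, all 5 H3K4 and all 3 H3K36 methyltransferases were higher in replicate 2, and 2 of 5 deacetylases. The part of length in these differences was not tested.

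**Figure D5:**
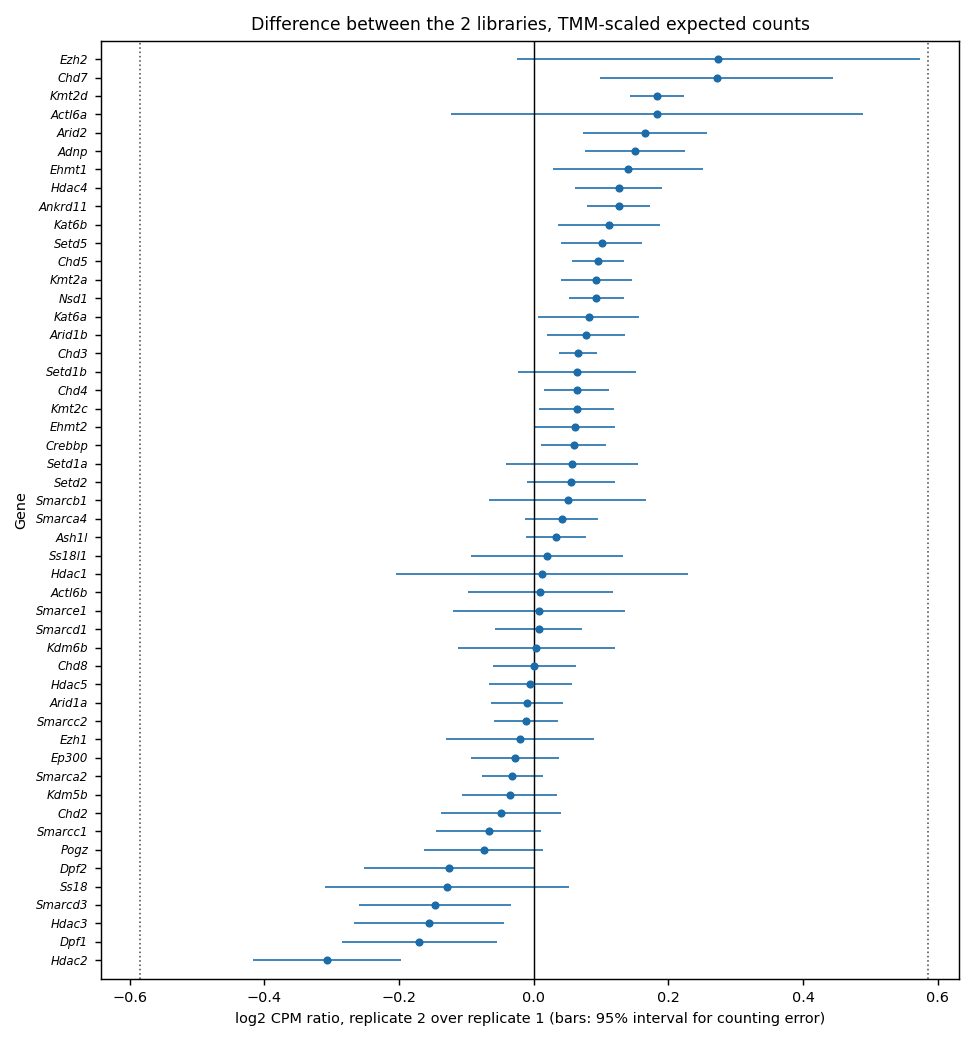
log2 CPM ratio of replicate 2 over replicate 1 for the 50 genes, in order of size, with exact 95% intervals for counting error. Dotted lines mark 1.5-fold, which no gene reaches; Ezh2 and Chd7 are at the top and Hdac2 at the bottom.

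TPM and CPM gave different directions for 12 members. Of these, 11 were higher in TPM and lower in CPM in replicate 2, among them Dpf2 (TPM ratio 1.29, CPM ratio 0.916), and Hdac1 was the reverse. In all, 44 members had a higher TPM in replicate 2. The share of all genes was not computed for these counts, so they cannot be read as particular to the members. The median SD of a member's TPM was 8.10% of its mean and the largest 19.9%, against a median of 6.05% over detected genes.

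Cell type markers describe the makeup of the libraries, and a sum of TPM is not a share of cells. Markers of excitatory neurons (led by Nrgn and Slc17a7) summed to 1987 and 2153 TPM, and of inhibitory neurons (Sst, Gad1) to 551 and 493. Those of astrocytes (Aldoc, Slc1a3) summed to 784 and 763, and of immature neurons (Stmn1, Tubb3) to 645 and 640. Most of the immature sum was Stmn1 (409.83 and 426.58) and Tubb3 (196.96 and 173.31). The other genes of that list were lower: Dcx at 12.10 and 15.43, and Sox4, Neurod1 and Sox11 at 5.72 to 11.85. Oligodendrocyte precursors (Olig1, Gpr17) summed to 122 and 142, microglia to 194 and 200, and endothelial and mural cells (Vtn, Rgs5) to 128 and 140. Every list but the progenitors and the vascular cells (7 of 8) was detected in full. Markers of myelinating oligodendrocytes differed most, at 1508 and 2375 TPM, with 8 of 8 higher in replicate 2 at a median of 0.55 on the log2(CPM + 1) scale. Excitatory markers were higher in replicate 2 for 9 of 10 and inhibitory ones for 1 of 8. Whether this makeup bears on the members' differences between the animals was not tested.

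The 2 deposited quantifications of the same reads differed for many members. Gene TPM was at least 1.5-fold apart in both libraries for 22 of 50 members (45.4% of 12922 genes), each time higher in the FASTQ-based table. After Ezh2, the largest ratios were those of Chd2 (2.36 and 1.87), Smarcd3 (2.06 and 2.00), Actl6b (1.84 and 1.99), Ep300 (2.06 and 1.75) and Hdac4 (1.90 and 1.83). Smarca2, Crebbp, Ezh1 and Smarcc2 followed with 1.67 to 1.92. That table was higher for most genes, with a median ratio of 1.55 and 1.52 over detected genes and 1.52 and 1.53 over members. Rescaled to the TPM of protein-coding genes, 3 members were past 1.5-fold (3.76% of genes): Ezh2, higher by the FASTQ-based table (1.60 and 1.65), and Chd3 (0.652 and 0.653) and Chd5 (0.648 and 0.620), lower by it. In CPM no member was past 1.5-fold (2.51% of genes). The tables were therefore closer in counts per gene than in TPM. Counts were whole numbers within 0.01 in both libraries for 41 members. The other 9, with reads divided between genes, were Adnp, Chd2, Hdac1, Kmt2d, Setd1a, Smarcb1, Smarcc1, Smarce1 and Ss18. The exons of 9 members overlap another gene on the same strand and those of 18 a gene on the other. For Arid2, Chd4, Ep300, Hdac5 and Smarca4 the same-strand gene had 0 counts in both libraries. Several of the genes on the other strand also had 0 counts. Overlaps were not counted over all genes. The spike-in label speaks of stranded libraries, but whether counting used the strand is not given in the sources used here.

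Partners of the members were broadly present too. Of 71 further genes in 7 lists, 70 were detected, with a median TPM of 23.6, below the 37.5 of the members. Among other BAF and PBAF subunits (13 of 13 detected) Bcl11a (46.3 ± 7.09), a zinc-finger subunit of neurons, and Brd9 (36.9 ± 7.74), of the non-canonical complex, led and the neuronal BAF45 form Dpf3 was lowest (3.07 ± 0.403). NuRD and ChAHP partners (12 of 12) ran from Cbx5 (73.7 ± 2.50) and Cdk2ap1 (68.4 ± 1.90) to Gatad2a (11.5 ± 1.44). This list had the highest median, 47.5 TPM. COMPASS and MLL partners (11 of 11) ran from Hcfc1 (31.8 ± 1.61) and Ncoa6 (30.7 ± 3.19) to Wdr5 (11.5 ± 0.311).

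PRC2 partners had the lowest median, 16.7 TPM, of the 7 lists. They ran from Aebp2 (28.1 ± 1.23) and Mtf2 (25.9 ± 2.16) to Phf19 at 0.680 and 0.470, the 1 gene of these lists that was not detected. Among other CHD, ISWI and related remodelers (7 of 7) Chd9 stood at 90.6 ± 2.72, below Chd3 and overlapping Chd5, followed by Srcap (54.4 ± 5.40), with Ino80 lowest (9.58 ± 0.806). Other demethylases (10 of 10) were led by Kdm1a (42.6 ± 2.67), an H3K4 demethylase of the CoREST complex, and Kdm4b (34.7 ± 3.13), both above Kdm5b, with Kdm4c lowest (11.4 ± 1.10). Other deacetylases and acetyltransferases (11 of 11) ran from Hdac11 (69.3 ± 0.474) and Kat5 (40.7 ± 0.0990) to Hdac10 (6.13 ± 0.559). Between the animals, 37 of the 71 had the higher CPM in replicate 2 (median difference 0.0038 on the log2 scale). Phf19, which was not detected, was the 1 past 1.5-fold, 1.68 times higher in CPM but lower in TPM. Its difference on the log2(CPM + 1) scale was 0.279, and no conclusion is drawn at this low level.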

How the data were processed

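Per the labels, total RNA (300 ng, with ERCC spike-ins) of 2 left cortices was sequenced. Per the description deposited with the files, the authors quantified reads on mm10 with GENCODE M21 in 2 ways. The alignment-based tables give deposited expected counts, TPM and the percent of gene TPM per transcript, and the FASTQ-based table gives deposited estimated counts and TPM. The sources used here name no tool for either. The mean and SD over the 2 libraries, ratios and shares were computed here. Expected counts per gene summed to 31191535 and 27079700, and 0.350% and 0.378% of all counts named no gene (spike-ins and numbered entries). Rounded counts were scaled by edgeR 4.0.16 TMM (0.987 and 1.01) to CPM and compared as log2(CPM + 1), which understates differences of low genes. Ratios of CPM themselves carry exact 95% binomial intervals. These were tried only on simulated counts with counting error alone, the error the intervals assume. That trial cannot show how they cover the spread between animals or preparations. DESeq2 1.42.0 size factors, total counts, other pseudocounts, filters, quantifications and single libraries were alternatives. Software was scipy 1.17.1, pandas 2.3.3, numpy 2.4.6 and matplotlib 3.10.9 under Python 3.11.15, and R 4.3.3.

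The members and lists were chosen with earlier results of these data known. All members are named, with the values of both genes of each pair, the 5 highest, the 5 lowest, the 5 that differed most between animals on the log2(CPM + 1) scale and those with unstable leading transcripts, plus the 2 highest genes of each list and the lowest of each partner list. The leading genes of the microglia and myelin marker lists are not reported here. Segments had to differ between coding transcripts over 1000 nt with at least 10% of gene TPM, a rule set after seeing the values. Protein sequences were not used here.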

Additional observations from a re-analysis of the deposited data

How the results depend on the processing

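Detection of all 50 members held at a TPM of 5, in the FASTQ-based table, after rescaling to protein-coding genes and in each library alone. The percentile of the members' median level (76.1) was 74.8 in FASTQ-based TPM, 84.9 in CPM without length correction, 85.9 without a filter on the genes compared, and 74.6 to 76.4 with 1 library left out. Pairs at least 2-fold apart numbered 9, and 8 in FASTQ-based TPM, 9 in CPM, 7 over protein-coding transcripts in either table and 9 to 10 with 1 library left out. The log2 ratio of Kat6b to Kat6a (1.19) turned to -0.018 in CPM. That of Hdac5 to Hdac4 (1.12) turned to -0.63 over protein-coding transcripts and to -0.55 over those of the FASTQ-based table, an alternative chosen after seeing the data. No member was past 1.5-fold between the animals under DESeq2 size factors, total counts, FASTQ-based counts or no filter, and 3 were past 1.2-fold. The median log2 difference of members (0.045) ran from 0.013 with FASTQ-based counts to 0.082 with total counts, and exceeded that of all genes by 0.061 to 0.077. The members higher in replicate 2 numbered 27 to 41. Members past 1.5-fold between the quantifications fell from 22 to 3 after rescaling to protein-coding genes and to 0 in CPM, and were 26 to 28 in a single library. The leading transcript was coding for 47 to 48 members. The median coding share (81.4%) was 81.8% in the FASTQ-based table, 80.1 to 83.4% with 1 library left out and 93.5% by expected count, which gives short transcripts less weight. No paired analysis was possible because there is 1 group.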
